A study of Mus musculus with 21 samples.

Results

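Multipotent progenitors (MPP) of mouse bone marrow with a knockout of the retinoid X receptors RXRα and RXRβ were compared with floxed control MPP. MPP are the early offspring of blood stem cells and here are sorted MPP3 and MPP4 cells, per the labels' protocols. The comparison takes the 3 knockout and the 3 floxed control MPP libraries of batch 1, 6 of the 21 libraries of the series, chosen by their labels alone. Knockout animals were homozygous for floxed alleles of Rxra and Rxrb (Rxrabfl/fl) and carried Cre recombinase under the blood-cell promoter Vav1 (written VaviCre in the titles). Floxed control animals carried the same Rxrabfl/fl alleles and no Cre, so the groups differ by Cre as well as by the receptors. All 6 libraries came from lineage-negative marrow cells of pooled animals, and ages are not used here. The long-term stem cells (LT-HSC) of the same 2 genotypes and the same batch, 3 libraries each, serve as a second cell type.

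RXR are nuclear receptors that bind DNA as partners of other receptors, among them the retinoic acid receptors, the oxysterol receptors (LXR), the fatty acid receptors (PPAR) and the orphan receptors NR4A1 and NR4A2. MPP3 and MPP4 cells feed the myeloid and the lymphoid branch of blood formation. NF-κB is a family of transcription factors held in the cytoplasm by IκB proteins, and many of its target genes encode its own inhibitors.

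Each library was made from 5 ng of RNA, and expression is given in TPM (a level per transcript length, scaled to one total per library) as the authors deposited it. The sum of TPM over the listed genes was between 842866 and 855994 in the 6 MPP libraries, and read depth is not known from TPM. The most abundant feature, ENSMUSG00000089855, has no symbol. It alone was at 202216 to 225875 TPM in knockouts and at 209445 to 231513 TPM in controls. The progenitor marker Cd34 was at 164 to 167 TPM in knockouts and at 150.0 to 171 TPM in controls, and the stem cell marker Slamf1 below 1 TPM in every library. Not all markers were alike, as Flt3 and Dntt were lower and Clca3a1 higher in every knockout library. The summed TPM of 14 MPP markers overlapped, at 2160 to 2847 in knockouts and 1617 to 2588 in controls. That of 44 LT-HSC genes did not, at 2077 to 2372 in knockouts and 1483 to 1623 in controls, and such sums follow their most abundant genes. RNA of other cells differed between libraries. Immunoglobulin kappa, Igkc, a product of mature B lineage cells, was at 5046, 1520 and 503 TPM in knockout MPP 1, 2 and 3 and at 9453, 9140 and 1609 TPM in control MPP 1, 2 and 3. The summed TPM of 20 neutrophil markers was 99.0, 285 and 650 in knockout MPP 1, 2 and 3 and 34.6, 37.3 and 66.1 in control MPP 1, 2 and 3. Pre-B genes were high in knockout 3 alone, where Igll1 stood at 38.7 TPM against 0.727 to 5.37 TPM in the other 5 libraries. In RNA from sorted pools, fewer cells of a type and less RNA per cell cannot be told apart.

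Of the targeted genes, Rxrb had lower TPM in every knockout library and Rxra did not. Rxrb (chromosome 17, 34031812 to 34038403, GRCm38.p6, as for all positions of genes) was at 9.55, 10.7 and 13.6 TPM in knockouts and at 15.8, 18.0 and 18.8 TPM in controls. All 3 knockout libraries lay below all 3 controls, and the exact two-sided permutation p was 0.1, the smallest that 3 against 3 allows. In the fit over all genes Rxrb did not pass (limma adjusted p = 0.532). Rxra (chromosome 2, 27676445 to 27763319) was at 2.20, 2.09 and 1.77 TPM in knockouts and at 2.02, 2.14 and 2.19 TPM in controls, and the groups overlapped (exact two-sided permutation p = 0.7). A TPM over the whole transcript records a lost exon only as far as that exon lowers the total. The Rxra junction that skips an exon, from 27741203 to 27748612, made up a share of 1 in knockout 1 and of 0.5 in knockout 3, had no value in knockout 2, and was 0 in all 3 controls, with the number of reads behind these shares unknown. Rxrg, the gene of the third receptor, stayed below 1 TPM in all 6 libraries.

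Of 14839 genes tested, 12 rose and 36 fell in knockout MPP. A gene was tested where it reached 1 TPM in at least 3 of the 12 batch 1 libraries, and called at a Benjamini-Hochberg adjusted p under 0.05 from limma on log2(TPM + 1) over all genes tested. The calls are thus 0.0809% of genes for rises, 0.243% for falls and 0.323% in all. At an unadjusted p under 0.05, 463 genes were higher (3.12%) and 480 lower (3.23%). In all 48 called genes the TPM of the 3 knockout libraries did not overlap those of the 3 controls. Over all genes tested this held for 12.5% with knockouts higher and 6.25% with knockouts lower. The call favours such genes, so their separation is no further support. Changes below are differences in log2(TPM + 1), knockout minus control, with the standard error of the fit, and they understate the change of genes with low TPM. The median change over all genes tested was 0.08, and 0.01 after the libraries were rescaled by median of ratios, where 20 genes rose and 64 fell. The count depended on single libraries. It was 27 without knockout 2, 17 without knockout 3, 17 without control 1 and 14 without control 2. Of 30 genes past the test that are named by rule below, 10 passed in all 6 fits that left out 1 library, and these were Sva, Gm16587, Nr4a3, Cxcl2, Nfkbia, Nfkbie, Art2a-ps, Arl4c, Sytl3 and Gm614. Klf10, Sqstm1 and Fcer1a passed in none of the 6 fits, and Ffar2, Tnfsf13os, Ms4a6c, Tjp1, Trib1, Mylip, Birc3 and Kdm6b in 1 each. Sva and Fcer1a reached 1 TPM in knockout libraries alone, and Cd83, Slc35d3 and Sema3d in control MPP alone, so these genes passed the filter only through the group where they are high and had to differ. No label says whether the numbered pools share animals, so p-values measure the spread between these libraries, which may be partly technical.

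Among the lists examined, that of NF-κB response genes held the most falls. Members of all lists were chosen with earlier results of these data known. Their shares beside those of all genes are therefore descriptive and no independent support. Of 31 tested members of a list of inflammatory NF-κB response genes, 10 fell and none rose, where 0.243% of all genes fell. The 10 include Cd83, which passed the filter only through control MPP and had to differ, so its fall is no support. At an unadjusted p under 0.05, 22 members were lower and 1, the chemokine gene Ccl2, was higher, against 3.23% lower and 3.12% higher over all genes. The list's median change was -0.83, against 0.08 over all genes, and 21 members had groups that did not overlap with knockouts lower, against 6.25% of all genes. The summed TPM of the list was 1640, 1603 and 1136 in knockout MPP 1, 2 and 3 and 2431, 2891 and 2639 in control MPP 1, 2 and 3. Without 1 library at a time, 4 to 7 members fell, and the median stayed between -0.90 and -0.77. Cd83 missed the filter and was not tested in the fits without a control MPP library.

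The inhibitors of NF-κB were prominent among these genes. Nfkbia, which encodes IκBα (chromosome 12, 55489409 to 55492647), was at 25.7, 30.0 and 24.6 TPM in knockouts and at 79.0, 76.7 and 100.5 TPM in controls. Every knockout library was below every control, and Nfkbia fell by 1.63 ± 0.20 on the log2 scale (SE, n = 3 each, limma adjusted p = 0.00339). Nfkbie, the gene of IκBε (chromosome 17, 45555700 to 45563169), was at 14.3, 17.1 and 12.9 TPM in knockouts and at 39.1, 36.7 and 34.5 TPM in controls. Its groups were also separate, with a change of -1.27 ± 0.17 (limma adjusted p = 0.00488). Nfkbid, a nuclear IκB, averaged 16.6 ± 1.46 TPM in knockouts and 43.8 ± 1.79 TPM in controls (SD, n = 3 each), and fell as well (limma adjusted p = 0.00628). Tnfaip3 encodes A20, an enzyme that edits ubiquitin chains and shuts off signalling to NF-κB (chromosome 10, 19000910 to 19015410). It was at 55.0, 108 and 65.1 TPM in knockouts and at 196, 246 and 175 TPM in controls, a change of -1.47 ± 0.26 (limma adjusted p = 0.0286). Knockout 2 was the highest of the knockouts and still below the lowest control. The IκB gene Nfkbib, at 15.7 to 18.2 TPM in knockouts and 14.3 to 18.6 TPM in controls, overlapped between groups.

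Subunits of NF-κB itself fell in part. Rel averaged 22.1 ± 4.15 TPM in knockouts and 53.2 ± 4.11 TPM in controls (SD, n = 3 each; limma adjusted p = 0.0368). Relb averaged 2.87 ± 0.588 TPM in knockouts and 7.52 ± 1.15 TPM in controls (SD, n = 3 each; limma adjusted p = 0.0412), and Nfkb2 4.94 ± 0.525 TPM in knockouts and 9.62 ± 1.26 TPM in controls (limma adjusted p = 0.047). The annotated span of Nfkb2 overlaps that of the neighbouring gene Psd, which also fell, over 316 bases, so their TPM may share reads. Rela had separate groups, at 18.1 to 21.01 TPM in knockouts and 28.02 to 29.6 TPM in controls, but did not pass (limma adjusted p = 0.366). Nfkb1, at 37.4 to 40.7 TPM in knockouts and 39.7 to 44.8 TPM in controls, overlapped between groups.

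Effector genes of the response completed the 10. Cxcl2, a chemokine that attracts neutrophils (chromosome 5, 90903899 to 90905938), was at 22.9, 28.3 and 12.6 TPM in knockouts and at 87.4, 89.8 and 83.5 TPM in controls. It had the largest fall of the list, by 2.05 ± 0.29 (SE, n = 3 each, limma adjusted p = 0.00488). Cd83, a surface protein of activated immune cells, was at 0.204, 0.423 and 0.207 TPM in knockouts and at 3.87, 3.46 and 2.85 TPM in controls, and passed the filter only through the 3 control libraries (change -1.78 ± 0.18, limma adjusted p = 0.00055). Birc3, an inhibitor of apoptosis and ubiquitin ligase in TNF receptor signalling, averaged 61.7 ± 7.11 TPM in knockouts and 134 ± 8.67 TPM in controls (SD, n = 3 each; limma adjusted p = 0.0211). Tnf itself was at 23.6, 33.6 and 19.3 TPM in knockouts and at 36.4, 64.7 and 59.5 TPM in controls. Those groups did not overlap, but the gene did not pass (limma adjusted p = 0.143). The abundant chemokine Ccl3 was at 491, 373 and 193 TPM in knockouts and at 647, 783 and 731 TPM in controls, again separate without passing (limma adjusted p = 0.578). Sod2 and Cflar, other members of the list, had overlapping groups, with changes of 0.03 each. Rel, Relb, Nfkb2, Nfkbid and Birc3 are named here to complete the count, and Rela, Nfkb1, Nfkbib, Tnf, Ccl3, Ccl2, Sod2 and Cflar were chosen after their values were seen.

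**Figure D1:**
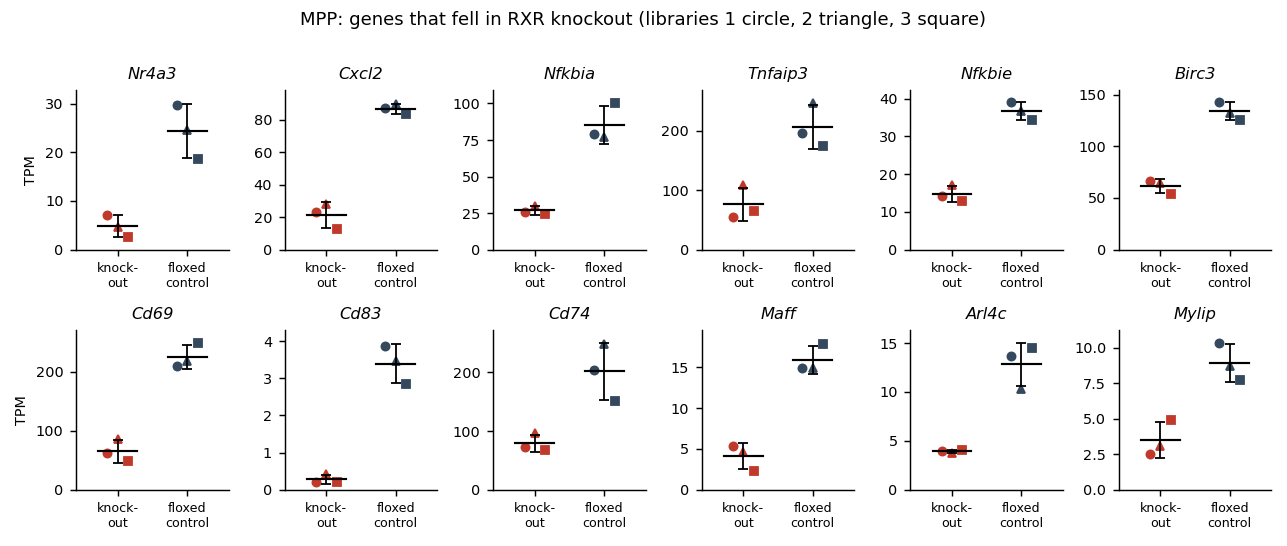
TPM of 12 genes that fell, in knockout MPP (red) and floxed control MPP (dark), 1 point per library with the mean and SD of 3; each panel has its own axis from 0. In every panel the 3 knockout libraries lie below the 3 controls, as for Arl4c at 3.78 to 4.05 TPM in knockouts and 10.3 to 14.5 TPM in controls.

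The region before the start site was read for 4 of these genes, shown because they fell, belong to the NF-κB list and hold the motif of NF-κB there. The sequences are from RefSeq (GRCm38.p6), each the 250 bases before the annotated start, 5′ to 3′ in the direction of the gene, with matches to the kappa-B consensus motif on either strand in capitals. Nfkbia is shown at chr12:55492648-55492897 (minus strand), Cxcl2 at chr5:90903649-90903898 (plus strand), Nfkbie at chr17:45555450-45555699 (plus strand) and Tnfaip3 at chr10:19015411-19015660 (minus strand).
Nfkbia: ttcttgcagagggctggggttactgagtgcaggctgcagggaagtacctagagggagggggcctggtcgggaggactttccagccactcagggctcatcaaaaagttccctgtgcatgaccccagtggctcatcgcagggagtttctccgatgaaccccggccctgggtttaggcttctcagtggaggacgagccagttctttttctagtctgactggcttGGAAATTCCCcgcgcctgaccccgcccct
Cxcl2: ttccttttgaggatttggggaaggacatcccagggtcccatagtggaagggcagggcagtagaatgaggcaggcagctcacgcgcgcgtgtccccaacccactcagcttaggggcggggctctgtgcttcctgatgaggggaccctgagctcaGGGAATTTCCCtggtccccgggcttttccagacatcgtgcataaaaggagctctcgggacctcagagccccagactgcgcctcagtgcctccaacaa
Nfkbie: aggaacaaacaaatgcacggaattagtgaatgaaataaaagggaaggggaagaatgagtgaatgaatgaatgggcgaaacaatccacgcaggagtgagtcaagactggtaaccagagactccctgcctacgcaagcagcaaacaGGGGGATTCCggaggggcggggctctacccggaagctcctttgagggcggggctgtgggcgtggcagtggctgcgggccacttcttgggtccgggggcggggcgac
Tnfaip3: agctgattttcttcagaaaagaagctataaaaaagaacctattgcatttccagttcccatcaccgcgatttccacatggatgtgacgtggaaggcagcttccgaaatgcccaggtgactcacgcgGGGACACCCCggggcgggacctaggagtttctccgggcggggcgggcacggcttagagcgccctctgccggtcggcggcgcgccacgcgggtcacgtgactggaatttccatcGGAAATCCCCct

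Nfkbia and Nfkbie held 1 match each, Tnfaip3 held 2, and Cxcl2 held 2 that overlap. Over the table, 3.9% of 32851 promoters held a match in these 250 bases. Of the 36 genes that fell, 21 had an entry, with 32 promoters between them, and 13 of the 32 (40.6%) held a match. Several genes have more than 1 promoter in the table, so these are not independent, and 11 of the 21 genes held a match. Besides the 4 shown these were Maff, Nfkb2, Nfkbid, Pde4b, Rel, Slc35d3 and Sqstm1. Of 8 risen genes with an entry, 1, Jhy, held a match. The letters TGACG, the core of the cAMP response element, on either strand, were in 14 of the 32 promoters of fallen genes (43.8%), against 17.8% of all promoters, and in none of 13 of risen genes. The nuclear receptor core letters AGGTCA, on either strand, were in 3 of 32 promoters of fallen genes, in 5 of 13 of risen genes, and in 14.0% of all, and the direct repeat bound by LXR with RXR, AGGTCA and AGGTCA with 4 bases between, was in none of either set and in 0.0152% of all. These matches describe the letters of these windows only.

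Immediate early genes, which cells switch on within minutes of a stimulus, were also mostly lower. Of 35 tested, 3 fell and none rose, where 0.243% of all genes fell. This list too was chosen with earlier results known. At an unadjusted p under 0.05, 21 were lower and 0 higher, against 3.23% lower and 3.12% higher over all genes. Their median change was -0.64, against 0.08 over all genes. Nr4a3, an orphan nuclear receptor that restrains the cycling of blood stem cells (chromosome 4, 48045078 to 48086447), was at 7.21, 4.64 and 2.58 TPM in knockouts and at 29.8, 24.7 and 18.6 TPM in controls. It had the largest change of the 36, -2.18 ± 0.30 (SE, n = 3 each, limma adjusted p = 0.00488). Maff, a small Maf transcription factor, was at 5.41, 4.67 and 2.29 TPM in knockouts and at 14.9, 14.9 and 17.9 TPM in controls (limma adjusted p = 0.0142). Trib1, a pseudokinase that controls C/EBP protein levels in myeloid cells, was at 6.03, 4.22 and 4.28 TPM in knockouts and at 14.5, 15.01 and 13.7 TPM in controls (limma adjusted p = 0.0304). In each of the 3 genes the groups were separate. The related Nr4a1 was at 43.5, 27.4 and 13.6 TPM in knockouts and at 135, 69.7 and 54.0 TPM in controls, which do not overlap, yet it varied within groups and did not pass (limma adjusted p = 0.403). Atf3, a stress-induced factor, was at 67.3, 37.8 and 20.3 TPM in knockouts and at 95.7, 159 and 136 TPM in controls (limma adjusted p = 0.105). Knockout 3 was the lowest library for all of these but Trib1. Without knockout 3, only 1 member of the list still passed, as also without control 1, 2 or 3.

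Among Krüppel-like factors and hormone response genes, Klf10, a TGF-β induced repressor, passed the test with all libraries and in none of the fits without 1 library (limma adjusted p = 0.0778 to 0.191). It was at 13.6, 14.1 and 13.4 TPM in knockouts and at 28.8, 25.1 and 30.2 TPM in controls, a change of -0.98 ± 0.18 (limma adjusted p = 0.0288). It was the 1 member of 15 to pass, where 0.243% of all genes fell. At an unadjusted p under 0.05, 8 of the 15 were lower, against 3.23% of all genes. Klf2, which keeps T cells quiescent, was at 162, 139 and 90.4 TPM in knockouts and at 174, 321 and 279 TPM in controls (limma adjusted p = 0.247). Klf9 stood at 0.418 to 1.14 TPM in knockouts and at 2.18 to 2.42 TPM in controls (limma adjusted p = 0.169).

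The surface protein gene Cd69 and the antigen presentation gene Cd74 fell. Cd69, a membrane protein induced early in lymphocyte activation, was at 62.0, 86.6 and 47.9 TPM in knockouts and at 210, 218 and 248 TPM in controls, a change of -1.80 ± 0.28 (SE, n = 3 each, limma adjusted p = 0.00877). Cd74, the invariant chain of MHC class II, was at 72.4, 96.1 and 68.0 TPM in knockouts and at 205, 249 and 152 TPM in controls (limma adjusted p = 0.0304), and passed in 2 of the 6 fits without 1 library. It was the 1 of 9 tested MHC class II genes to fall, and also the 1 of 17 tested B cell markers, where 0.243% of all genes fell. H2-Ab1 was at 74.5, 89.7 and 83.7 TPM in knockouts and at 175, 207 and 180 TPM in controls, and H2-Aa at 51.4 to 69.6 TPM in knockouts and 108 to 154 TPM in controls. Both had separate groups and passed only after rescaling, at limma adjusted p = 0.00952 for H2-Ab1 and 0.0436 for H2-Aa, against 0.0684 and 0.132 as deposited. The class II regulator Ciita was at 0.969 to 1.25 TPM in knockouts and 1.29 to 1.67 TPM in controls, separate by little, and did not pass (limma adjusted p = 1). The summed TPM of 23 B cell markers was 6190, 1818 and 873 in knockout MPP 1, 2 and 3 and 12099, 11559 and 2354 in control MPP 1, 2 and 3. Knockouts 2 and 3 lay below every control both in this sum and in Cd74, while knockout 1 stood above control 3 in the sum and below it in Cd74. The part of B lineage RNA in the class II values was not tested. Ms4a1, which encodes the B cell antigen CD20, was below 1 TPM in every library, unlike Igkc, given above.

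Targets of LXR, a partner of RXR, fell in part. Arl4c, a small GTPase (chromosome 1, 88698225 to 88702191), was at 3.99, 3.78 and 4.05 TPM in knockouts and at 13.7, 10.3 and 14.5 TPM in controls. The SD over the 3 knockouts was 0.141 TPM, all 3 lay below the controls, and the change was -1.47 ± 0.19 (SE, n = 3 each, limma adjusted p = 0.00343). Mylip, also called Idol, which marks the LDL receptor for breakdown, was at 2.55, 3.05 and 4.90 TPM in knockouts and at 10.3, 8.70 and 7.74 TPM in controls (limma adjusted p = 0.0442). Abca1, the cholesterol exporter, was at 1.09, 1.049 and 1.49 TPM in knockouts and at 3.78, 4.19 and 2.38 TPM in controls, separate but not past the test (limma adjusted p = 0.1). Arl4c and Mylip were the 2 of 15 tested LXR targets that fell, where 0.243% of all genes fell. None rose, and the list median was -0.03. Srebf1, at 16.8 to 19.9 TPM in knockouts and 16.9 to 22.5 TPM in controls, and Fasn, at 12.5 to 16.4 TPM in knockouts and 12.9 to 15.1 TPM in controls, overlapped. In the cholesterol synthesis list none of 22 passed. Its lowest p belonged to Insig1, a brake on sterol synthesis, at 9.18, 8.76 and 8.53 TPM in knockouts and at 16.4, 14.5 and 15.1 TPM in controls (limma adjusted p = 0.274). Among the receptors that pair with RXR none passed. Nr1h2, the gene of LXRβ, was at 33.6 to 37.8 TPM in knockouts and 45.1 to 50.2 TPM in controls (limma adjusted p = 0.612), and Rara at 6.86 to 7.24 TPM in knockouts and 8.80 to 12.5 TPM in controls (limma adjusted p = 0.777). No member of the PPAR and fatty acid oxidation list, of 25 tested, or of the retinoic acid list, of 11 tested, passed. Aldh1a1, a maker of retinoic acid, was at 8.62, 7.51 and 7.07 TPM in knockouts and at 2.01, 4.402 and 3.99 TPM in controls (limma adjusted p = 0.11).

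Of the 36 falls, 20 were in a list and 16 in none. Art2a-ps, a pseudogene of the ART2 ADP-ribosyltransferases, was at 1.27, 1.78 and 0.828 TPM in knockouts and at 6.57, 5.35 and 4.85 TPM in controls (limma adjusted p = 0.00488). As a near copy of Art2b it may share reads with it. Sytl3, a vesicle tether, was at 2.11, 1.11 and 0.983 TPM in knockouts and at 5.12, 5.80 and 5.70 TPM in controls (limma adjusted p = 0.00552). Gm614, a gene on the X chromosome, was at 14.5, 17.7 and 12.8 TPM in knockouts and at 35.5, 43.9 and 47.2 TPM in controls (limma adjusted p = 0.00488). It lies 499 bases from Foxo4, a FOXO transcription factor that also fell, with 4.05 ± 0.610 TPM in knockouts and 8.90 ± 0.504 TPM in controls (SD, n = 3 each; limma adjusted p = 0.0291). Kdm6b, a histone demethylase, is in the list of chromatin regulators. It averaged 34.4 ± 8.92 TPM in knockouts and 70.1 ± 1.052 TPM in controls (SD, n = 3 each; limma adjusted p = 0.0444). Its neighbour Tmem88, 273 bases away, averaged 4.98 ± 1.70 TPM in knockouts and 14.4 ± 0.651 TPM in controls (limma adjusted p = 0.00877). The counting is not stated to use strand, so reads at the borders of such pairs may be assigned to either gene. Sqstm1, the autophagy receptor p62, is in the lysosome and autophagy list. It averaged 59.9 ± 7.99 TPM in knockouts and 128 ± 8.35 TPM in controls (SD, n = 3 each; limma adjusted p = 0.0429). Gm8752, in no list, was at 1.97, 1.67 and 0.881 TPM in knockouts and at 5.57, 7.42 and 4.00 TPM in controls. It no longer passed after rescaling (limma adjusted p = 0.0368 as deposited, 0.089 rescaled). The others outside the lists were Gm15344, Ahnak, Psd, Slc35d3, Zbtb10, Gm11011, Sema3d, Ifrd1, Lncpint and Pde4b.

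The 12 rises were fewer and mostly of low level. Sva, which encodes seminal vesicle antigen and is known from the male reproductive tract (chromosome 6, 42038394 to 42042851), was at 9.13, 13.2 and 11.01 TPM in knockouts. In controls it was listed at 0 in 2 libraries and stood at 0.164 TPM in control 3. Its difference of 3.51 ± 0.21 in log2(TPM + 1) was the largest rise (SE, n = 3 each, limma adjusted p = 5.81e-07), in a gene that passed the filter only through knockout libraries. The same gene was at 9.57, 16.4 and 15.3 TPM in knockout LT-HSC and listed at 0 in all 3 control LT-HSC. Selp, the adhesion molecule P-selectin and a gene high in aged stem cells and platelets (chromosome 1, 164115264 to 164150026), was at 45.5, 49.1 and 62.9 TPM in knockouts and at 17.9, 16.0 and 14.9 TPM in controls. It rose by 1.62 ± 0.25 (limma adjusted p = 0.00758), the only 1 of 44 tested LT-HSC genes to pass, where 0.0809% of all genes rose. Jhy, needed for cilia in the brain, was at 5.82, 4.00 and 5.88 TPM in knockouts and at 1.02, 1.01 and 1.12 TPM in controls (limma adjusted p = 0.00877). Gm16587 was at 6.26, 11.2 and 9.89 TPM in knockouts and at 1.63, 1.98 and 1.07 TPM in controls (limma adjusted p = 0.00552).

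Receptors of myeloid cells were among the rises. Ccr2, the chemokine receptor of monocytes (chromosome 9, 124101918 to 124109140), was at 10.3, 13.3 and 13.4 TPM in knockouts and at 3.86, 3.64 and 6.11 TPM in controls, a change of 1.29 ± 0.23 (SE, n = 3 each, limma adjusted p = 0.0304). Ffar2, a receptor for short-chain fatty acids found on neutrophils, was at 16.3, 17.3 and 22.9 TPM in knockouts and at 6.58, 8.28 and 7.62 TPM in controls (limma adjusted p = 0.0286). Fcer1a, the IgE receptor chain of mast cells and basophils, was at 3.08, 2.45 and 3.45 TPM in knockouts and at 0.996, 0.443 and 0.857 TPM in controls (limma adjusted p = 0.039, and 0.0857 to 0.252 without 1 library). Ms4a6c, a membrane protein of myeloid cells, was at 12.8, 13.5 and 14.3 TPM in knockouts and at 3.99, 6.04 and 7.97 TPM in controls (limma adjusted p = 0.0304). Tjp1, the tight junction protein ZO-1, was at 6.41, 7.76 and 6.36 TPM in knockouts and at 2.38, 3.08 and 2.98 TPM in controls (limma adjusted p = 0.0278), and missed the threshold after rescaling (0.0693). Tnfsf13os, named as an antisense RNA of Tnfsf13, averaged 21.1 ± 3.12 TPM in knockouts and 8.81 ± 1.25 TPM in controls (SD, n = 3 each; limma adjusted p = 0.0368), and without strand its reads cannot be told from those of its partner. Tgfbr3, at 5.14 to 6.49 TPM in knockouts and 2.17 to 3.08 TPM in controls, and Mtus1, at 2.77 to 5.19 TPM in knockouts and 0.470 to 1.69 TPM in controls, came next by p and did not pass (limma adjusted p = 0.0531 each). The remaining 2 rises had identifiers with no symbol.

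**Figure D2:**
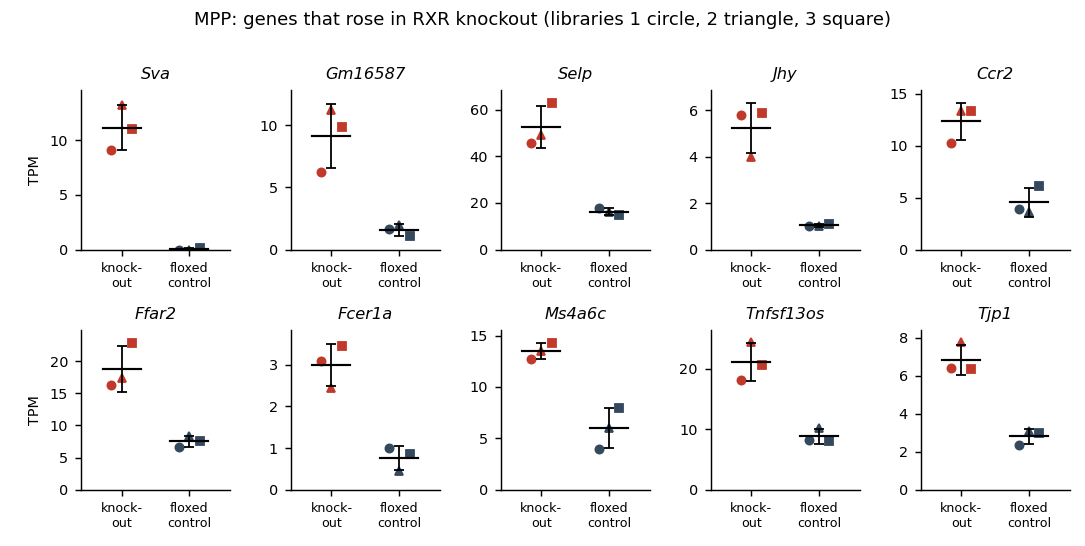
TPM of the 10 genes with a symbol that rose, in knockout MPP (red) and floxed control MPP (dark), 1 point per library with the mean and SD of 3; each panel has its own axis from 0. The groups are separate in every panel, as for Selp at 45.5 to 62.9 TPM in knockouts and 14.9 to 17.9 TPM in controls.

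No gene of the myeloid priming or neutrophil lists passed the test. None of 34 genes of the myeloid priming list passed, and the list median was 0.75, against 0.08 over all genes. At an unadjusted p under 0.05, 16 were higher and 1 lower, against 3.12% higher and 3.23% lower over all genes. The summed TPM of the list overlapped, at 2893 to 4150 in knockouts and 1678 to 3456 in controls. Csf2rb2, a receptor chain for IL-3, was at 6.46, 9.85 and 11.5 TPM in knockouts and at 3.05, 3.21 and 3.65 TPM in controls, with separate groups (limma adjusted p = 0.0566 as deposited and 0.0181 rescaled). Mpo, the peroxidase of primary granules, was at 1250, 888 and 1392 TPM in knockouts and at 380, 522 and 1336 TPM in controls. Elane, the granule elastase, was at 201, 108 and 253 TPM in knockouts and at 30.3, 33.3 and 173 TPM in controls. Control 3 stood inside the knockout range for both, so these groups overlapped. Of 15 tested neutrophil markers all had a positive change and none passed, with a median of 1.36. At an unadjusted p under 0.05, 9 of them were higher, against 3.12% of all genes. S100a8, an abundant calcium-binding protein of neutrophils, was at 32.9, 102 and 247 TPM in knockouts and at 4.61, 5.81 and 14.8 TPM in controls (limma adjusted p = 0.0582). Its groups were separate, with knockout 3 the highest library. Knockout 3 was also the highest for the granule genes Camp, Lcn2 and Ngp, and Ly6g was at 0 to 2.19 TPM in knockouts and 0 to 0.311 TPM in controls. The part of neutrophil RNA in the rises of Ffar2 and Ms4a6c was not tested.

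Of 44 LT-HSC genes, Selp included, 9 were higher and 1 lower at an unadjusted p under 0.05, against 3.12% higher and 3.23% lower over all genes. Their median was 0.13 against 0.08 over all genes. Of the 44, 28 had a positive change and 16 a negative one, against 9765 positive and 5069 negative among all 14839 genes. Clca3a1 was at 2.58, 3.01 and 3.30 TPM in knockouts and at 0.751, 1.27 and 0.738 TPM in controls (limma adjusted p = 0.0896 as deposited and 0.0367 rescaled). Ifitm1, an interferon-inducible membrane protein, was at 766, 770 and 887 TPM in knockouts and at 360, 404 and 321 TPM in controls (limma adjusted p = 0.0965). Flt3, the receptor that marks MPP4, was at 67.7, 82.1 and 72.0 TPM in knockouts and at 123, 99.7 and 88.2 TPM in controls, and Dntt, the terminal transferase of lymphoid progenitors, at 133, 100.3 and 122 TPM in knockouts and at 216, 176 and 143 TPM in controls. Neither passed (limma adjusted p = 0.901 for Flt3 and 0.419 for Dntt), though the groups did not overlap in either gene. Myc was at 195, 275 and 333 TPM in knockouts and at 154, 150.3 and 199.8 TPM in controls, which overlapped at knockout 1 and control 3, and did not pass (limma adjusted p = 0.629).

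No member passed in 31 of the 46 lists examined, those of partner receptors, cholesterol synthesis, PPAR, retinoic acid, myeloid and neutrophil genes given above included. Among them were 50 S phase genes with a median of 0.10, 52 G2 and M phase genes with a median of 0.01, 75 ribosomal protein genes with a median of 0.02, 74 oxidative phosphorylation genes with a median of 0.17 and 40 Myc targets with a median of 0.18. In the unfolded protein response list none of 27 passed. Herpud1, a gene of protein disposal at the endoplasmic reticulum, was at 28.9, 28.8 and 29.6 TPM in knockouts and at 48.5, 50.9 and 49.1 TPM in controls (limma adjusted p = 0.0684 as deposited and 0.0479 rescaled). Irf1, the interferon regulatory factor, was at 35.0, 31.6 and 32.3 TPM in knockouts and at 67.3, 57.0 and 58.0 TPM in controls (limma adjusted p = 0.071 as deposited and 0.03 rescaled). None of 53 tested interferon response genes passed on deposited TPM.

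**Figure D3:**
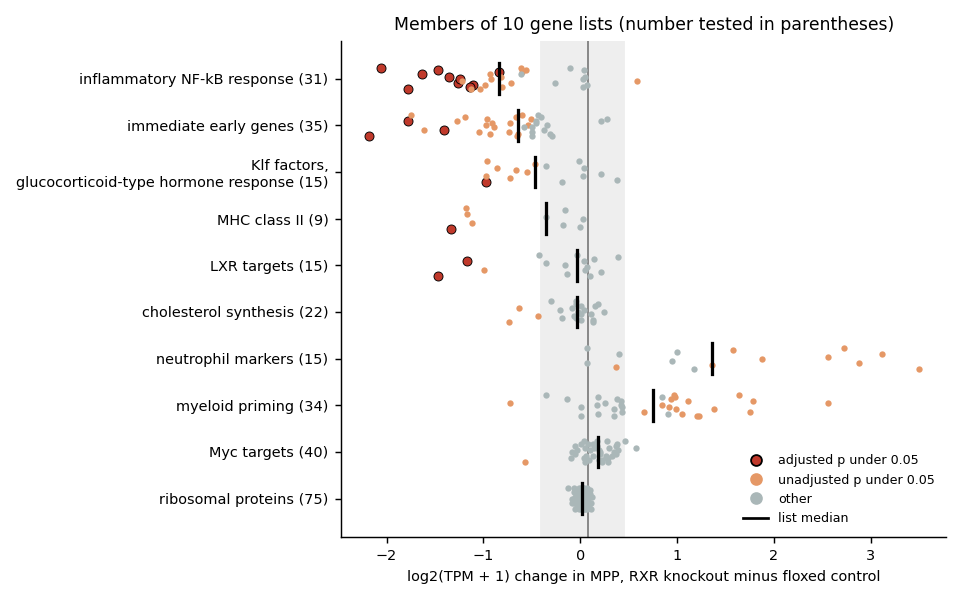
Difference in log2(TPM + 1), knockout minus floxed control MPP, for each tested member of 10 gene lists, with list medians as bars; the grey band spans the 5th to 95th percentile of all 14839 genes (-0.41 to 0.45) and the grey line their median. NF-κB response and immediate early genes lie mostly left of the band, myeloid and neutrophil genes mostly right of their background median, and ribosomal protein genes within the band.

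The same contrast in LT-HSC of batch 1 used other libraries, with the same 2 genotypes. The sample descriptions give the MPP and LT-HSC libraries of a genotype the same numbers. They do not say whether libraries of a number come from the same pool, and the main fit treats them as unpaired. In LT-HSC the deposited TPM were higher in knockouts for many genes, with 44.6% of genes called higher and 0.58% lower and a median change of 0.52, and the split moved to 2.17% higher and 2.53% lower after rescaling. Both scales are therefore given. All 12 genes that rose in MPP also rose in LT-HSC on deposited TPM, and 6 of the 12 did so after rescaling. Of the 36 that fell in MPP, 11 fell and 2 rose in LT-HSC on deposited TPM, and 20 fell and 1 rose after rescaling. The fallen genes had a median change of -1.37 in MPP and of -0.35 in LT-HSC as deposited, and of -1.43 in MPP and -0.86 in LT-HSC rescaled.

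Cd69 fell in both cell types. It was at 5.45, 7.25 and 3.32 TPM in knockout LT-HSC and at 19.5, 10.6 and 20.6 TPM in control LT-HSC, a change of -1.49 (limma adjusted p = 0.00456). Tnfaip3 was at 15.8, 25.5 and 15.1 TPM in knockout LT-HSC and at 36.8, 33.2 and 46.8 TPM in control LT-HSC (limma adjusted p = 0.0101). Nfkbia was at 18.1, 27.9 and 20.8 TPM in knockout LT-HSC and at 37.0, 30.1 and 41.8 TPM in control LT-HSC (limma adjusted p = 0.0164). In each of these 3 genes the LT-HSC groups were separate. Over the NF-κB list the LT-HSC median was 0.00 as deposited and -0.47 rescaled, against 0.52 and -0.04 over all genes. Over the immediate early list it was -0.06 as deposited and -0.71 rescaled.

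A difference of the effect between the cell types was tested as an interaction, and 12 of 14839 genes passed (0.0809%), of which 4 passed after rescaling (0.0273%). The count was 0 without the most abundant feature, 1 with a filter of 5 TPM and 52 with a pseudocount of 5. It was 45 with the replicate number of the titles as a block, although the descriptions number knockouts and controls differently and no label ties them. It was 2409 with genotype and number as a random effect, so which genes differ between the cell types rests on the model. The genes that fell in MPP and passed it were Cd83, Gm11011 and Lncpint. Cd83 passed the filter only through control MPP, so it had to differ. It was near 0 in all LT-HSC, at 0.0652 to 0.303 TPM in knockouts and 0.0990 to 0.242 TPM in controls (interaction -1.74 ± 0.26, limma adjusted p = 0.0251). Gm11011 was at 9.60, 7.59 and 8.13 TPM in knockout MPP and at 25.6, 17.7 and 16.6 TPM in control MPP, while in LT-HSC it was at 12.4, 11.2 and 18.0 TPM in knockouts and at 4.58, 4.08 and 3.88 TPM in controls. Its effect was thus opposite in the 2 cell types (interaction -2.63 ± 0.30, limma adjusted p = 0.00326). Lncpint, a long non-coding RNA, averaged 5.61 ± 0.818 TPM in knockout MPP and 13.3 ± 1.70 TPM in control MPP (SD, n = 3 each), and changed by 0.65 in LT-HSC (interaction limma adjusted p = 0.0463 as deposited and 0.171 rescaled). For the other 45 genes past the test in MPP, Nr4a3 and Cxcl2 included, no difference between the cell types passed in the fit without a block. For Nr4a3 the changes were -2.18 in MPP and -0.03 in LT-HSC as deposited (interaction limma adjusted p = 0.0656).

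**Figure D4:**
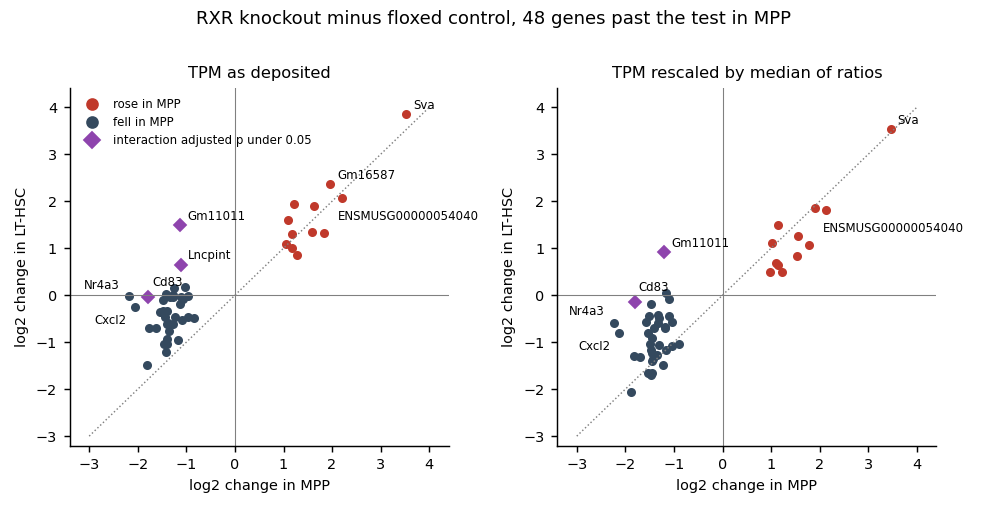
Change in LT-HSC against change in MPP, each knockout minus floxed control in log2(TPM + 1), for the 48 genes past the test in MPP, as deposited (left) and rescaled by median of ratios (right); the dotted line marks equal changes. The 12 risen genes lie in the upper right on both scales, and most of the 36 fallen genes lie below 0 in LT-HSC after rescaling. Diamonds are genes whose 2 effects differ in the fit without a block.

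Splicing was compared over 42029 events with a value in all 6 MPP libraries, and 63 passed (0.15%). The measure is PSI, the share of junction reads that use the named junction, as deposited by the authors, and an event was called where limma's adjusted p was below 0.05 and the group means were at least 0.1 apart. At an unadjusted p under 0.05 there were 3738 events (8.89%). Of the 63 events, 62 were intron retention and 1, in Puf60, had no type. They lie in 46 genes. Exon-intron and exon-exon junctions of the same intron are counted as separate events. Taken by junction cluster, 35 showed less retention and 10 more retention in knockouts. Over all 15959 events whose junction enters an intron, 1163 were lower and 391 higher in knockouts at an unadjusted p under 0.05. The mean PSI over these events was 0.140, 0.175 and 0.175 in knockouts and 0.190, 0.189 and 0.154 in controls. Knockout 1 was the lowest, and control 3 lay below knockouts 2 and 3, so the library means overlapped. In 55 of the 63 events 1 group was at exactly 0 or 1 in all 3 libraries, a spread of 0 that lowers the error of the fit, and the reads behind a PSI are not known from the file.

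Nfkb2 and Birc3 were the genes past both the expression and the splicing test. The spliced junction of Nfkb2 at chromosome 19, 46310875 to 46311009, had a PSI of 1, 0.875 and 1 in knockouts and of 0.255, 0.348 and 0.319 in controls. The junction into that intron had a PSI of 0 in all 3 knockouts and of 0.590, 0.484 and 0.537 in controls (difference -0.54, limma adjusted p = 0.0312). In Birc3 the junction into an intron was at 0 in all 3 knockouts and at 0.295, 0.353 and 0.385 in controls (limma adjusted p = 0.0437). Both genes had lower TPM in knockouts, and the part of read number in their PSI was not tested. Coq2, an enzyme of coenzyme Q synthesis, showed the largest difference. Its spliced junction was at 0.842, 1 and 1 in knockouts and at 0.256, 0.186 and 0.238 in controls (difference 0.721, limma adjusted p = 0.0387), at 29.3 TPM in knockouts and 27.0 TPM in controls. Spliced junctions of Cdk18, Fubp1, Peli1, Arfgap2 and Per2 were at 1 in all 3 knockouts. Their control means were 0.350 for Cdk18, 0.361 for Fubp1, 0.405 for Peli1, 0.438 for Arfgap2 and 0.463 for Per2. The targeted Rxrb had an alternative 3′ splice site at 0.6, 0.212 and 0.432 in knockouts and 0.245, 0.324 and 0.273 in controls, which overlapped (limma adjusted p = 0.759). The number of events rested on single libraries and on the model. It was 4 without knockout 2 and 2 without knockout 3, and none of the 63 events was among either, those of Nfkb2, Birc3 and Coq2 included. It was 284 without knockout 1, with 42 of the 63 shared, and 229 without control 3, with 45 shared. It was 65 without control 1 and 91 without control 2, with 26 and 24 shared, and 79 over all 12 libraries, with 18 shared. On a logit scale 478 events passed, 60 of the 63 among them, and with the replicate number as a block limma called 0.

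**Figure D5:**
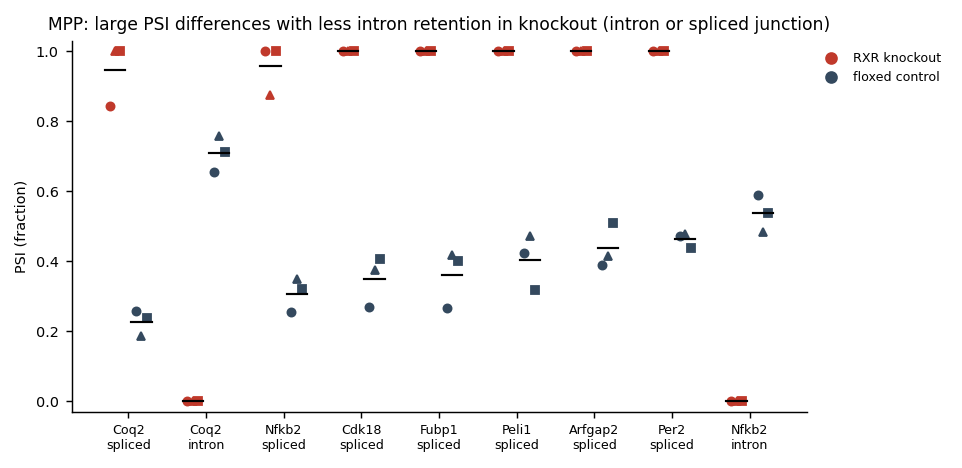
PSI of splicing events with less intron retention in knockouts among those with the largest differences past the test, in knockout MPP (red) and floxed control MPP (dark), 1 point per library with group means as bars; labels say whether the junction is spliced or enters the intron. The groups are separate in each event shown, as for the spliced junction of Coq2 at 0.842 to 1 in knockouts and 0.186 to 0.256 in controls.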

How the data were processed

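RNA of sorted cells was amplified with the Ovation RNA-seq kit, made into libraries with Nextera XT and sequenced in pairs, per the labels' protocols. The authors deposited gene levels in TPM, and kallisto is named, with no version, per the submitters' processing notes. They also deposited PSI per splicing event, a fraction from 0 to 1, and STAR 2.6 and mm10 are named per the submitters' processing notes. The transcript set, the counting of strand and the depth are not stated in those notes or labels, so no counting error could be set on a value, and the number of libraries limits precision.

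A name table matched 27458 of the 28987 gene identifiers to symbols, and gene positions are those of RefSeq on GRCm38.p6, the assembly called mm10. The filter kept 14839 genes that reached 1 TPM in 3 or more of the 12 batch 1 libraries. limma 3.58.1 (R 4.3.3) was fitted with a trend on log2(TPM + 1) with 4 group means, so that the MPP and LT-HSC groups share 1 estimate of spread, and p-values were adjusted by Benjamini-Hochberg. The difference of the knockout effect between the cell types was a contrast of the same fit. Rescaling divided TPM by median-of-ratios size factors. PSI was fitted with limma on the 6 MPP libraries for events with a value in all 6. Targeted genes had an exact two-sided permutation test. Figures used matplotlib 3.10.9 in Python 3.11.15. The fits were tested on simulated data.

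Genes were named by rule. These were the 12 with the largest change in each direction among genes with a symbol past the test, a mean of at least 5 TPM in 1 group and groups that do not overlap, filled by the lowest p where fewer passed, and the 4 with the lowest p in each list. Other names are said to be additions or complete a count. Members and lists were chosen with earlier results of these data known. Same-numbered MPP libraries of the 2 groups did not deviate together, so the numbers were not used as pairs. Same-numbered MPP and LT-HSC libraries did so in part (r = 0.54, 0.15 and 0.26 for knockouts, 0.07, 0.10 and 0.11 for controls), and not every pair was over 0.1. Alternatives covered the scaling, the pseudocount, the filter, the model and each library left out. Some named genes and events are not reported here.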

Additional observations from a re-analysis of the deposited data

Results flagged for a closer look

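In 12 genes the knockout effect differed between MPP and LT-HSC of batch 1 by a test of the difference itself (limma without a block, Benjamini-Hochberg adjusted over 14839 genes). Values are differences of the effects in log2(TPM + 1), MPP minus LT-HSC, on deposited TPM. In 3 the gene fell in MPP. These were Cd83 at -1.74 (adjusted p = 0.0251), Gm11011 at -2.63 (adjusted p = 0.00326) and Lncpint at -1.76 (adjusted p = 0.0463). Gda, the enzyme guanine deaminase, had the 1 positive difference, 3.07 (adjusted p = 0.0251). Gda was at 1.47, 1.16 and 2.71 TPM in knockout MPP and at 0.439, 0.469 and 1.30 TPM in control MPP, while in LT-HSC it was at 0.551, 1.604 and 3.04 TPM in knockouts and at 15.4, 14.2 and 8.47 TPM in controls. The MPP groups overlapped and the LT-HSC groups did not.

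Gm2389, Bach2os, Pard3bos2 and Gm53 were lower on average in knockout MPP without passing there, and higher in knockout LT-HSC. Their differences were -2.23 for Gm2389 (adjusted p = 0.0251), -2.57 for Bach2os (adjusted p = 0.0463), -1.71 for Pard3bos2 (adjusted p = 0.0463) and -1.68 for Gm53 (adjusted p = 0.0256).

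The other 4 were at or near 0 in all MPP libraries, so the difference is that of LT-HSC alone. It was -2.49 for Olfr632 (adjusted p = 0.00326), -2.23 for Olfr631 (adjusted p = 0.0251), -1.46 for Serping1 (adjusted p = 0.041) and -1.58 for Gpx8 (adjusted p = 0.041). Olfr631 and Serping1 reached 1 TPM in knockout LT-HSC alone, and Cd83 in control MPP alone. These genes passed the filter only through the group where they are high and had to differ, so their p-values are no support. After rescaling, limma called Cd83, Gm11011, Gda and Olfr632 and none of the other 8. Groups of 3 libraries were not searched for outlying samples.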

How the results depend on the processing

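Of the named genes, Rxra, which passed in no fit, changed direction, at 0.01 on the log2 scale without knockout 3 against -0.05 with all libraries; no other did under the alternatives run. The 48 genes past the test became 84 after rescaling, of which 45 were shared, 134 with the 6 MPP libraries alone, and 14 to 50 without 1 library. The 12 genes whose effect differed between cell types became 4 after rescaling, 3 by quantile normalization, 3 with a pseudocount of 0.1, 52 with a pseudocount of 5, 22 with no filter, 1 with a filter of 5 TPM, 41 by a robust fit and 2 to 9 without 1 library. Without the most abundant feature limma gave 0. The 10 NF-κB list genes that fell became 6 with no filter and 4 to 7 without 1 library, and the list median, -0.83, was -0.94 and -0.59 with pseudocounts of 0.1 and 5, -0.93 with the 5 TPM filter and -0.90 to -0.77 without 1 library. The 3 immediate early genes became 1 with no filter, 9 with the MPP libraries alone and 1 to 4 without 1 library, where the median was -0.76 to -0.48. The neutrophil median, 1.36, was 3.03 and 0.58 with pseudocounts of 0.1 and 5, 2.56 with the 5 TPM filter and 1.15 to 1.797 without 1 library. The myeloid median, 0.75, was 0.47 with a pseudocount of 5, 0.44 with the 5 TPM filter and 0.54 to 0.89 without 1 library. Without 1 library, knockout minus control in TPM was -0.185 to 0.0275 for Rxra, -7.42 to -5.41 for Rxrb and 0.0521 to 0.112 for Rxrg. Against 63 splicing events, 478 passed on a logit scale, 60 of them shared, and 2 to 284 without 1 library, with 0 to 45 shared. The cause of these shifts was not tested. Depth is unknown, so genes of low TPM and PSI of exactly 0 or 1 have no counting error.

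Same-numbered knockout and control MPP libraries deviated from their group means with r of -0.03, 0.10 and 0.06 across genes, which does not pair them. With the replicate number as a block limma called 83 genes, 47 of them shared, 8 immediate early genes and 45 differences between cell types. The replicate block left 0 splicing events in limma, with 3400 at an unadjusted p under 0.05. With a replicate block by genotype and number as a random effect, 2409 differences between cell types passed.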
